A study of Mus musculus with 52 samples.

Results

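Interferon-inducible genes were followed across single cells of mouse bone marrow. The 9 genes are Ifitm1, Ifitm2, Ifitm3, Ly6e, Bst2, Oas2, Tgtp1, Tgtp2 and Irf7, picked by symbol out of 28786 gene identifiers after earlier results of these data were known, so their levels here are a description and carry no test. All 9 had reads, and all 9 passed the filter on low values (a mean of 5 CPM or more, with 10 or more cells in which the gene was read), as did 9158 genes in all. CPM is a gene's read count relative to all reads of its cell, which adjusts for depth. Other ways of scaling cells moved some of the values, as given below. The study held 52 Smart-seq2 libraries, each made from the full-length cDNA of 1 cell, and all shared 1 label. The cells were called primed HSCs (haematopoietic stem cells) and came from C57BL/6 mice aged 6 to 8 weeks of the genotype Cd4-cre;R26Tdtomato, which is meant to mark with tdTomato the cells in which Cre has been made under Cd4 control. How the cells were gated, how many animals and plates they came from and what "primed" stands for is not stated in the sources used here.

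There was no control group and no named animal, so the cells make up 1 sample with no replicate. The comparisons below set ranges of cells beside each other within that sample, and SDs and intervals describe spread over cells or counting error only. Of the 52 cells, 49 were kept, with 85519 to 12446477 reads. The HSC label was met in part. Of the 9 HSC and multipotent progenitor markers listed, Kit reached 10 CPM in 48 of the 49 cells. Meis1 did in 22, Erg in 18, Cd34 in 14, Hlf in 14, Mecom in 6, Slamf1 in 5, Procr in 4 and Ly6a in 4. Of the 8 erythroid markers listed, the enzyme genes Car1 and Car2 reached it in all 49. The erythroid transcription factor Klf1 did in 41, Gata1 in 39, Epor in 35 and Tfrc in 34, but the globin genes Hba-a1 in 11 and Hbb-bt in 7. Cells were therefore also described by Cd34 and by Klf1 level. The 14 Cd34-positive cells had 91.0 to 1346 CPM of Cd34, and the other 35 had at most 1.66 CPM. For Klf1 the cells were split at its median of 735.5 CPM, around which 10 cells lay within 100 CPM, so the 24 Klf1-high and 25 Klf1-low cells are ranges and not cell types. Klf1 did have a gap lower down, with no cell between 197 and 402 CPM, and the Klf1-low cells hold 15 cells under it and 10 above it. Only cell 2 was both Cd34-positive and Klf1-high.

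Interferons act through surface receptors whose attached JAK kinases phosphorylate STAT proteins. Type I interferons lead to a complex with IRF9 that binds interferon-stimulated response elements (ISREs) in promoters, and interferon gamma acts through gamma-activated sites. The genes switched on this way block viruses at many steps, and in the marrow, interferon is known to push quiescent stem cells into cycle, while stem cells also keep some of these genes on without infection. Among the genes described here, the Ifitm genes, Ly6e and Bst2 encode membrane proteins that act on virus entry or release. Oas2 makes oligoadenylate in response to viral RNA, Tgtp1 and Tgtp2 are GTPases that attack the vacuoles of intracellular parasites, and Irf7 is the transcription factor that amplifies type I interferon production.

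The promoters are shown first, because the ISRE is the best-known route by which interferon reaches a gene. It was not used to choose these genes, but they were picked as interferon-inducible, so their share of matches carries no test. RefSeq windows on GRCm38.p6, from 250 bases before the start to 50 after it, were given for 7 of the 9 genes; Ly6e and Oas2 have no entry. The ISRE core, spelled as GAAA, 2 unspecified bases (NN) and GAAA again and searched on both strands, was found in 5 of the 7 windows, against 3.44% of 32851 windows of the same length. Each match in the 5 lay on the gene's own strand, and the 5 include the near-copies Tgtp1 and Tgtp2. In lists of other interferon-stimulated genes described below, 76.9% of 13 GTPase windows and 37.7% of 61 antiviral windows held the core. The stretches below run from 150 bases before the start to the first 30 transcribed bases, 5′ to 3′ on the gene's strand, with the ISRE core in capitals.
Tgtp1, chr11:48992217-48992396, minus strand: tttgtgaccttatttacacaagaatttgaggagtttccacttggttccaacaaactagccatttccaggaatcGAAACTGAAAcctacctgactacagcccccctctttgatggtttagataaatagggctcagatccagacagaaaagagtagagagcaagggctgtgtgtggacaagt
Tgtp2, chr11:49064183-49064362, minus strand: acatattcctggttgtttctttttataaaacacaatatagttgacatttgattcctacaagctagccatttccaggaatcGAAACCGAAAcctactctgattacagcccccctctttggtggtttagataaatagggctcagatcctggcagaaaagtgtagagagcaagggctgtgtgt
Bst2, chr8:71537443-71537622, minus strand: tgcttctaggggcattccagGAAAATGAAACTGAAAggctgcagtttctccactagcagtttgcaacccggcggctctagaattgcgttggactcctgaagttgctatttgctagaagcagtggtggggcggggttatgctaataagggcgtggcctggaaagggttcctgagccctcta
Ifitm2, chr7:140955932-140956111, minus strand: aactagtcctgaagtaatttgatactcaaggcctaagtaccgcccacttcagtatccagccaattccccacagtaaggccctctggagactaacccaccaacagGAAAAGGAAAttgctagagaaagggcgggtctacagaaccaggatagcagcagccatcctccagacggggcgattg
Ifitm3, chr7:141010715-141010894, minus strand: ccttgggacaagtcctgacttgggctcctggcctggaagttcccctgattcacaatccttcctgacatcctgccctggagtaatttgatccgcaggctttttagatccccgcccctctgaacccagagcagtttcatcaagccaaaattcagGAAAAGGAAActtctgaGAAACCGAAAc
Ifitm1, chr7:140967926-140968105, plus strand, shown as the Ifitm window without a match: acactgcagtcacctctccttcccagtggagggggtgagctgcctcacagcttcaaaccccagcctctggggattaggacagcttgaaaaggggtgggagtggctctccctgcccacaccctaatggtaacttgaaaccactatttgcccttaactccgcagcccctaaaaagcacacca

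The match began 77 bases before the start in Tgtp1 and 70 bases before it in Tgtp2. Bst2 held 2 overlapping matches, which began 130 and 124 bases before the start. In Ifitm2 the match began 46 bases before the start, and in Ifitm3 a pair of matches lay just inside the transcribed stretch. The windows of Ifitm1 and Irf7 held no match to these letters. The gamma-activated site, spelled TTCNNNGAA and also searched on both strands, was found in 4 of the 7 windows (Ifitm3, Bst2, Tgtp1 and Tgtp2) and in 8.30% of all windows. These are matches of letters in a window, and no binding was measured.

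Some of these genes are near-copies, which limits how far their reads can be told apart. Of the 31-base words in the annotated transcripts of Tgtp1 and Tgtp2, 83.2% of those of Tgtp1 occur in Tgtp2 and 89.2% of those of Tgtp2 occur in Tgtp1. The share of words found in any other gene was 55.5% for Ifitm2, 20.5% for Ifitm3 and 11.6% for Ifitm1. For Ifitm2 the gene entries sharing most words were Gm45717 (38.1%), Gm8865 (23.5%) and Gm11951 (21.9%). The share in any other gene was 0.42% for Ly6e and 0.36% for Irf7, and no word of Bst2 or Oas2 was shared. The split between Tgtp1 and Tgtp2 in a cell is thus uncertain, and their sum is given beside them. The sum of the Ifitm genes is given for the same reason.

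Ifitm2 and Ly6e were on in nearly every cell. Ifitm2 (chromosome 7, 140954837 to 140955987) ranged from 98.3 to 5352 CPM, with a median of 557, and was above 10 CPM in 49 of 49 cells (exact Clopper-Pearson interval 92.7% to 100%). Ly6e (chromosome 15, 74955051 to 74959905) ranged from 5.55 to 2257 CPM, with a median of 506.5, and was above 10 CPM in 48 of 49 cells (interval 89.1% to 99.9%). Cell 50 was the exception for Ly6e, although it had 3422372 reads. A gene was called constitutive at 10 CPM or more in at least 90% of cells, which held for these 2 of the 9 genes and for 9.87% of the 9158 genes.

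Ifitm3 came next, at 10 CPM or more in 43 of 49 cells, with a median of 194 CPM and a range of 0 to 5436 CPM. It stayed just short of the constitutive level at 87.8% of cells. Bst2, or tetherin, which holds budding virions on the cell surface, and Tgtp2 each reached 10 CPM in 35 of 49 cells. Bst2 had a median of 58.6 CPM and never exceeded 269 CPM, while Tgtp2 had a median of 159 CPM and reached 3888 CPM. At 10 CPM or more in at least 50% of cells, 5 of the 9 genes counted, beside 55.9% of all genes tested.

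The other members were off in most cells. Irf7 reached 10 CPM in 22 of 49 cells, Ifitm1 in 20, Tgtp1 in 16 and Oas2 in 8 (16.3%, interval 7.32% to 29.7%). The lowest Ifitm1 level among the cells at 10 CPM or more was 110.7 CPM, so no cell held it between 10 CPM and that level. Irf7 had 25 cells at 0 reads and a median of 96.6 CPM among the 22 cells at 10 CPM or more. For Tgtp1 the corresponding median was 36.3 CPM, and 7 cells exceeded 100 CPM. Per kilobase of exon, which allows genes to be compared, mean levels were 1144 CPM for Ifitm2, 594 for Ifitm3, 211 for Ifitm1 and 153 for Ly6e. Those of Tgtp2 (133), Bst2 (68.5), Tgtp1 (39.5), Irf7 (18.5) and Oas2 (8.39) were lower.

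**Figure D1:**
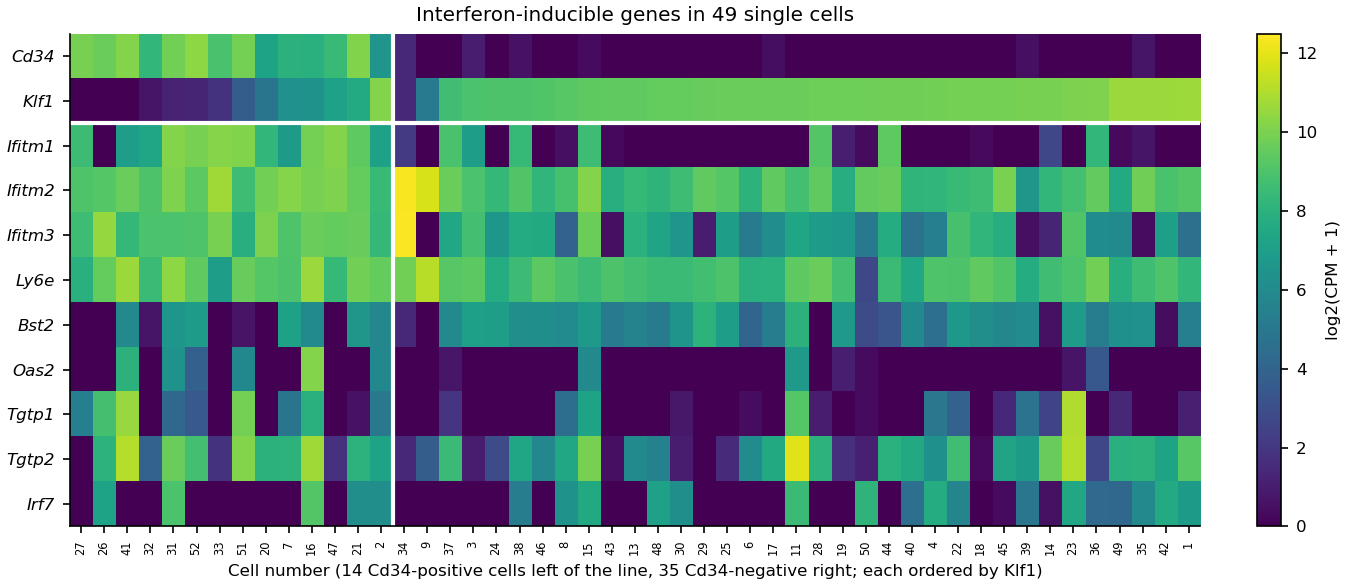
Level of Cd34, Klf1 and the 9 interferon-inducible genes (rows) in each of the 49 cells (columns, numbered as in the labels) on a log2(CPM + 1) colour scale. The 14 Cd34-positive cells are left of the white line and the 35 Cd34-negative cells right of it, each set ordered by Klf1; Ifitm2 and Ly6e are bright almost throughout, and Oas2 is dark outside 8 cells at 10 CPM or more.

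A few cells held most of the signal of 4 of the 9 genes. The 5 highest cells held 92.5% of the summed CPM of Oas2, 89.9% of that of Tgtp1, 57.7% of that of Tgtp2 and 56.1% of that of Irf7. For comparison, 39.6% of all genes tested had 50% or more in 5 cells, and the median over them was 43.6%. The count of 4 of 9 is thus near the share over all genes and is no trait of this set. Oas2 and Tgtp1 lay far above that median, Tgtp2 and Irf7 less so. Ifitm1 (49.4%) and Ifitm3 (49.3%) lay just under 50%. Ifitm2 (34.8%), Bst2 (30.8%) and Ly6e (27.04%) were spread more evenly, and 11, 11 and 14 cells were needed to reach 50% of their sums.

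Oas2 was the extreme case, as cell 16 alone had 1176 CPM and 64.2% of the sum. The next cells were cell 41 with 263 CPM and cell 11 with 108 CPM, and 36 cells had no Oas2 read. Tgtp1 rested on cell 23 with 2036 CPM, cell 41 with 1545 CPM and cell 51 with 948 CPM. Tgtp2 was led by cell 11 with 3888 CPM, cell 23 with 2173 CPM and cell 41 with 2171 CPM. With both copies added, 64.7% of the signal was in 5 cells and 4 cells held 50% of it, against 89.9% for Tgtp1 and 57.7% for Tgtp2 taken singly. The Ifitm sum was spread wider, with 35.04% in 5 cells and 10 cells to 50%.

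**Figure D2:**
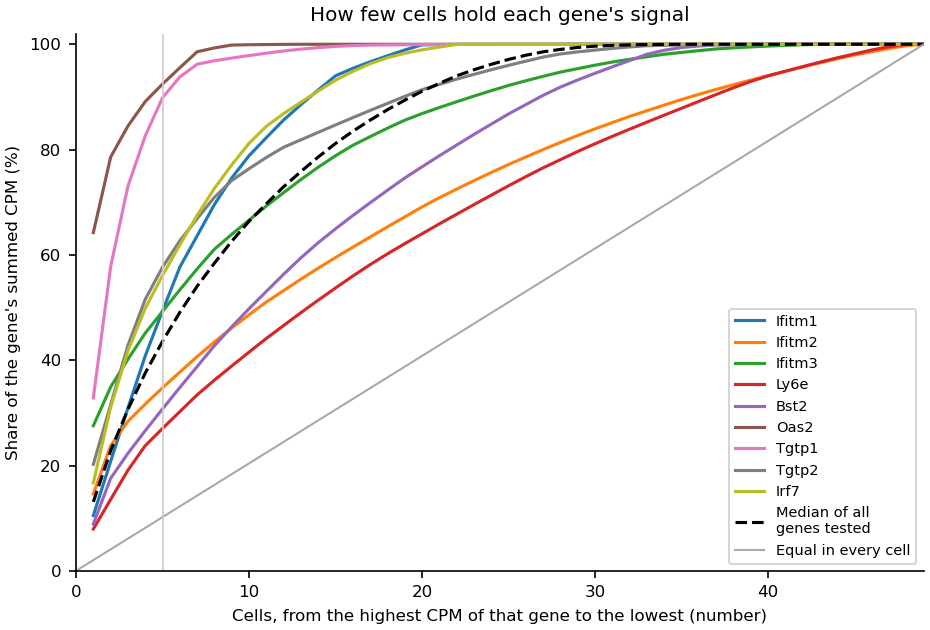
Share of a gene's summed CPM (vertical axis, %) held by its highest cells, counted from the highest cell down (horizontal axis, number of cells), for each of the 9 genes, with the median over all 9158 genes tested as the dashed line and equal levels in every cell as the thin diagonal. At 5 cells (vertical line) Oas2 stands at 92.5% and Tgtp1 at 89.9%, against 27.04% for Ly6e and 43.6% for the median gene.

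Cells that led one gene were in part unlike the rest. Cell 34, highest for Ifitm2 (5352 CPM) and for Ifitm3 (5436 CPM), had 47423 CPM of summed neutrophil and monocyte markers, among which Lyz2 is the lysozyme of myeloid cells, and 8607 CPM of dendritic cell markers. It had 1.66 CPM of both Cd34 and Klf1. Cell 9, highest for Ly6e with 2257 CPM and second for Ifitm2 with 3379 CPM, had 7741 CPM of summed B lineage markers and the fewest reads of all cells kept, 85519. In neither cell did Oas2, Tgtp1 or Irf7 have a read. Without cells 9, 13, 23 and 34, which an earlier description of these data had set apart, the 5 highest cells held 22.8% of the Ifitm2 sum and 37.8% of the Ifitm3 sum.

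Oas2, Tgtp1, Tgtp2 and Irf7 were high in overlapping sets of cells. All 8 cells with Oas2 at 10 CPM or more also had Tgtp1 at that level, and their lowest Tgtp sum was 182 CPM. Irf7 was at 10 CPM or more in 5 of those 8 cells. Of the 16 cells with Tgtp1 at 10 CPM, 15 had Tgtp2 as well, and of the 22 cells with Irf7, 19 did. The Tgtp sum reached 100 CPM in 29 cells and 1000 CPM in 6 cells, and these 6 were cells 11, 23, 41, 51, 16 and 15 in falling order from 4480 to 1113 CPM. Between 3 and 9 of the members, with a median of 5, were at 10 CPM or more in a cell. All 9 were in cells 2, 15, 16 and 31, and 8 in cells 11, 41 and 52.

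Membership of that set did not follow Irf7 cell by cell. Cells 41 and 51 had 3717 and 2125 CPM of the Tgtp sum and no Irf7 read. Cell 50 had 276 CPM of Irf7, more than all but 3 cells, with 1.46 CPM of the Tgtp sum. Cell 16 was highest for Oas2 and for Irf7 (572 CPM), and it was also highest for 11 of the 54 tested genes of the antiviral and GTPase lists described below, while cell 11 was highest for 7 of them. Cell 11 was the deepest of all with 12446477 reads, but cell 16 had 584216.

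Over the 49 cells, Tgtp1 and Tgtp2 had a Spearman correlation of 0.64, for which shared sequence can be part of the value. Oas2, which shares no 31-base word with any gene, correlated with Tgtp1 at 0.53 and with Tgtp2 at 0.47. Irf7 correlated with Tgtp1 at 0.45 and with Tgtp2 at 0.39. The Ifitm genes formed a second set, with 0.50 between Ifitm1 and Ifitm2, 0.49 between Ifitm1 and Ifitm3 and 0.45 between Ifitm2 and Ifitm3. Between the sets, values ran from -0.17 for Ifitm1 with Irf7 to 0.38 for Ifitm1 with Oas2. The highest value of Ly6e was 0.42, with Oas2, and that of Bst2 was 0.24, also with Oas2. The median over all 36 pairs was 0.23. Cells share depth and are not replicates, and Irf7 (0.38) and Ifitm2 (-0.35) were themselves correlated with total reads.

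Each member's nearest genes among the tested genes that are not members were ranked by the same correlation. Because members were left out, Tgtp1 and Tgtp2 are missing from each other's lists, although their value of 0.64 exceeds those listed for either. None of the genes named shared a 31-base word with the member, but near-copies among the members could not be listed. Oas2 was nearest to Oas3, a second oligoadenylate synthetase (0.60), and to Zbp1, a nucleic acid sensor (0.57). Tgtp1 was nearest to Tmem176a (0.63). Zbp1 was among the nearest 3 of Tgtp1 (0.60) and of Tgtp2 (0.56) as well. Zbp1 was read in only 10 of the 49 cells, and its 5 highest cells held 90.4% of its summed CPM. The list of Tgtp2 was led by Psmb9, an immunoproteasome subunit, and Rtp4, an inducible antiviral gene (both 0.57). Irf7 was nearest to Adar, an RNA-editing enzyme with an interferon-inducible form (0.68).

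The Ifitm genes, Ly6e and Bst2 had other neighbours. Ifitm2 was nearest to Laptm5, a lysosomal protein of blood cells (0.67), and to the immunoproteasome subunit Psmb8 (0.67), and Ifitm3 to the gene entry Gm8995 and the actin-binding Coro1a (both 0.75). Ifitm1 was nearest to Ctla2a (0.70), Ly6e to Gpsm3 (0.58) and Bst2 to the telomere-binding Terf1 (0.63).

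By Cd34, Ifitm1 showed the widest gap in the share of cells. It ranged from 0 to 1185 CPM with a median of 524.99 in the 14 Cd34-positive cells, against 0 to 671 CPM with a median of 0 in the 35 Cd34-negative cells. It reached 10 CPM in 13 of 14 Cd34-positive cells (interval 66.1% to 99.8%), with cell 26 as the exception, and in 7 of 35 Cd34-negative cells (8.44% to 36.9%). Mean levels were 601 ± 467 CPM in Cd34-positive and 82.1 ± 183 CPM in Cd34-negative cells (SD over cells), a ratio of 7.32, and leaving out any 1 cell kept that ratio between 6.77 and 9.28.

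Ifitm3 was the other Ifitm gene past 2-fold by Cd34. It lay between 226 and 1452 CPM with a median of 531 in Cd34-positive cells, and between 0 and 5436 CPM with a median of 100.9 in Cd34-negative cells. All 14 Cd34-positive cells had 200 CPM or more, and so did 10 of the 35 Cd34-negative cells. The means of 651 ± 339 CPM in Cd34-positive and 303 ± 911 CPM in Cd34-negative cells (SD over cells) gave a ratio of 2.15, which was 4.27 without cell 34 and 1.94 without cell 26. It was 1.80 with TMM factors and 1.16 with median of ratios size factors, 2 other ways of scaling cells. Ifitm2 had a median of 768 CPM in Cd34-positive and 464 CPM in Cd34-negative cells, but its means gave a ratio of 1.14, which turned to 0.84 with median of ratios size factors. The Ifitm sum had a ratio of 1.88, or 2.53 without cell 34.

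Oas2 and Tgtp1 were also past 2-fold on mean CPM, but through few cells. Oas2 ranged from 0 to 1176 CPM in Cd34-positive cells and from 0 to 108 CPM in Cd34-negative cells, with medians of 0 in both. It reached 10 CPM in 6 of 14 Cd34-positive cells (17.7% to 71.1%) and in 2 of 35 Cd34-negative cells (0.700% to 19.2%). The means of 118 ± 313 CPM in Cd34-positive and 5.19 ± 20.7 CPM in Cd34-negative cells gave a ratio of 22.7, which was 7.01 without cell 16 and 54.3 without cell 11. Tgtp1 reached 10 CPM in 9 of 14 Cd34-positive cells, with a median of 23.1 CPM, and in 7 of 35 Cd34-negative cells, with a median of 0. Its ratio of 2.88 was 1.65 without cell 41 and 9.51 without cell 23. The Tgtp sum ranged from 2.39 to 3717 CPM in Cd34-positive cells and from 0 to 4480 CPM in Cd34-negative cells, and its ratio of 1.85 was under 2-fold, though 2.60 without cell 11.

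The remaining members overlapped widely between the Cd34 ranges. Ly6e had medians of 718 CPM in Cd34-positive and 441 CPM in Cd34-negative cells and a ratio of 1.47. Tgtp2 had a ratio of 1.601, which became 2.33 without cell 11 and 2.11 with median of ratios size factors. Irf7 reached 10 CPM in 5 of 14 Cd34-positive and 17 of 35 Cd34-negative cells, and its ratio of 1.64 fell to 1.03 without cell 16. Bst2 leaned the other way, with 10 CPM reached in 7 of 14 Cd34-positive cells (median 27.1 CPM) and in 28 of 35 Cd34-negative cells (median 61.3 CPM), and a ratio of 0.66.

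In all, 4 of the 9 genes were 2-fold or more higher in Cd34-positive cells and none was 2-fold or more lower, beside 20.2% and 19.2% of all genes tested. The median log2 ratio was 0.72 over the members and about 0 over all genes tested. With copies summed, leaving Oas2, Ly6e, Bst2, Irf7, the Ifitm sum and the Tgtp sum, 1 of 6 was past 2-fold. The Cd34-positive cells were shallower, with a median of 1083630 reads against 2556760 in Cd34-negative cells. Thinned to 85519 reads each, a read of Ifitm1 was seen in 13 of 14 Cd34-positive and 8 of 35 Cd34-negative cells, and of Oas2 in 6 Cd34-positive and 2 Cd34-negative cells.

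**Figure D3:**
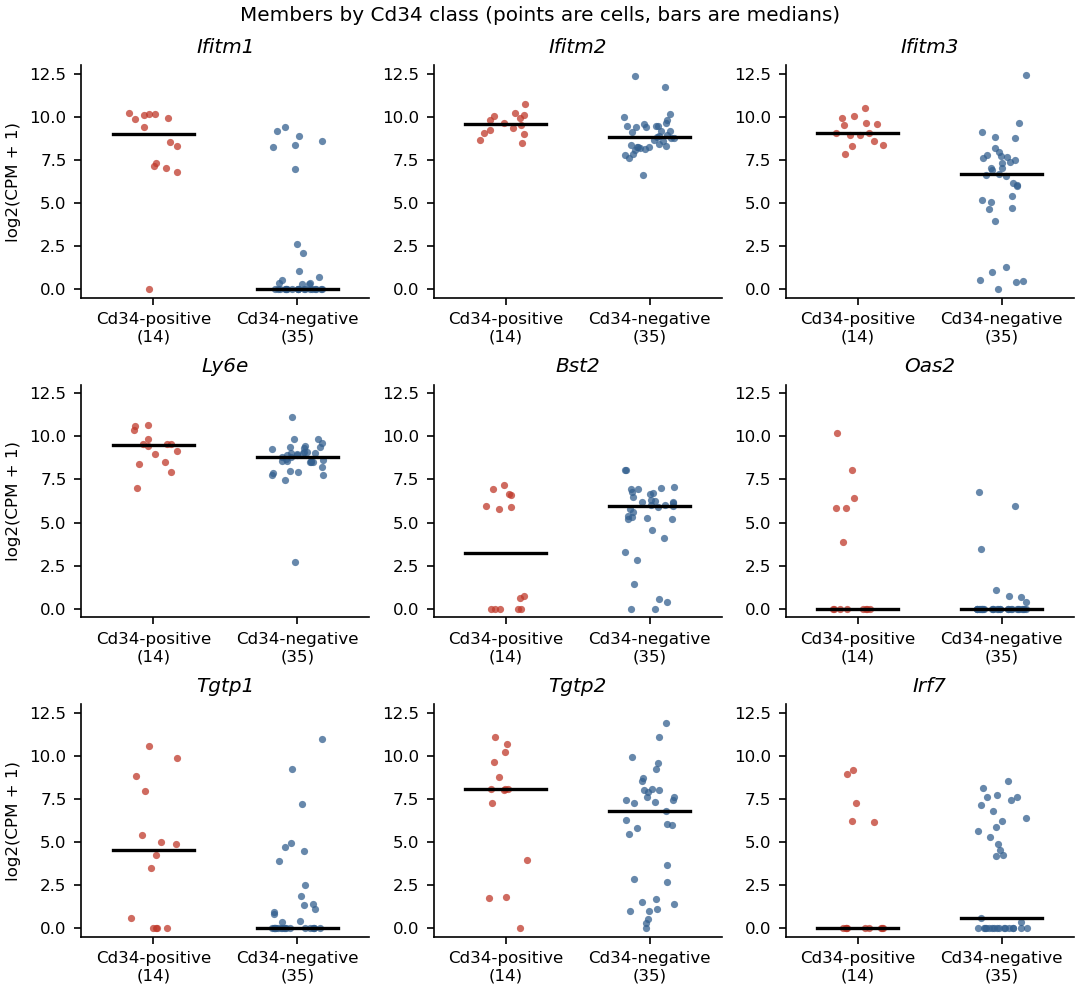
Each of the 9 genes in the 14 Cd34-positive cells (left in each panel) and the 35 Cd34-negative cells (right) on a log2(CPM + 1) axis, with 1 point per cell and a bar at the median. Ifitm1 and Ifitm3 lie higher in most Cd34-positive cells, the Ifitm3 point far above the others in Cd34-negative cells is cell 34 at 5436 CPM, and Bst2 has more points near 0 in Cd34-positive cells.

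Other markers moved with Cd34 too, and their part in these values was not tested. The summed HSC and multipotent progenitor markers (all 9 with reads, Cd34 among them) had medians of 2151 CPM in Cd34-positive and 451 CPM in Cd34-negative cells. Those of megakaryocytes (all 5 with reads) had medians of 466 CPM in Cd34-positive and 3.29 CPM in Cd34-negative cells, and those of erythroid cells (all 8) had 2086 CPM in Cd34-positive and 11476 CPM in Cd34-negative cells. Neutrophil and monocyte markers (8 of 10 with reads, Elane and Ly6c2 at 0) ranged from 111 to 2427 CPM in Cd34-positive cells with a median of 623, and from 0 to 47423 CPM in Cd34-negative cells with a median of 0.83. Of these genes only Lyz2 and Tyrobp passed the filter on low values. Lyz2 had means of 517 CPM in Cd34-positive and 1152 CPM in Cd34-negative cells, and Tyrobp 28.8 CPM and 123 CPM, both with their highest value in cell 34. Dendritic cell markers (7 of 9, Ccr9 and Cd209a at 0) ranged from 0 to 1488.2 CPM in Cd34-positive cells with a median of 96.6, and from 0 to 8607 CPM in Cd34-negative cells with a median of 25.3. Of the 3 dendritic genes tested, Flt3 had a ratio of 59.4 by Cd34. The others were lower, Cd74 at 0.42 and H2-Ab1 at 0.49, both with their highest value in cell 34. T and NK cell markers (2 of 8, with Cd3e, Cd3g, Cd4, Trbc2, Klrb1c and Ncr1 at 0) had medians of 114 CPM in Cd34-positive and 0.23 CPM in Cd34-negative cells. Nearly all of that sum was Nkg7, with means of 217 CPM in Cd34-positive and 42.4 CPM in Cd34-negative cells, while Cd8a had a mean of 0.52 CPM over all cells. Those of endothelium and stroma (all 8) had medians of 277 CPM in Cd34-positive and 54.4 CPM in Cd34-negative cells. Of these 8 genes only Pecam1, with a mean of 180 CPM, passed the filter on low values. Cdh5 and Col1a1 were each read in 1 cell and Kdr in 2. B lineage markers (all 7) had medians of 0.80 CPM in Cd34-positive and 0.25 CPM in Cd34-negative cells.

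By Klf1, the Ifitm genes were lower where Klf1 was high. Ifitm1 ranged from 0 to 671 CPM with a median of 0 in the 24 Klf1-high cells, against 0 to 1185 CPM with a median of 159 in the 25 Klf1-low cells. It reached 10 CPM in 4 Klf1-high cells (4.74% to 37.4%) and in 16 Klf1-low cells (42.5% to 82.03%), and the ratio of means was 0.18, or 0.12 without cell 44. Ifitm3 ranged from 0.32 to 557 CPM with a median of 81.5 in Klf1-high cells, and from 0 to 5436 CPM with a median of 429 in Klf1-low cells. The ratio was 0.20, or 0.28 without cell 34. Ifitm2 had medians of 433 CPM in Klf1-high and 647.7 CPM in Klf1-low cells, and its ratio of 0.499 was 0.61 without cell 34 and 0.507 with TMM factors. The Ifitm sum had a ratio of 0.34.

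Oas2 had a ratio of 0.11 from means of 7.31 CPM in Klf1-high and 66.2 CPM in Klf1-low cells, which was 0.37 without cell 16 and 0.04 without cell 11. The Tgtp genes lay near 1 on mean CPM at this split, and their ratios moved with the cells and the Klf1 limit used. The Tgtp sum ranged from 0 to 4480 CPM with a median of 171 in Klf1-high cells and from 0.44 to 3717 CPM with a median of 170 in Klf1-low cells, a ratio of 1.05. Leaving out 1 cell moved it between 0.71 (without cell 11) and 1.42 (without cell 41). Tgtp1 alone had a ratio of 0.83, which was 0.22 without cell 23 and 1.43 without cell 41. It was 0.53 with median of ratios size factors, 0.32 with the Klf1 limit at 100 CPM, 0.65 between the 16 highest and the 16 lowest cells by Klf1, and 0.63 in cells whose label code starts with Y. The ratio of Tgtp2 was 1.13, against 0.62 with the limit at 100 CPM, 0.72 between those highest and lowest cells, 0.65 in the Y-coded cells, 0.72 without its highest cell and 0.90 with median of ratios size factors.

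At the median split, Irf7 was read in more Klf1-high cells, at nearly equal means. It reached 10 CPM in 14 of 24 Klf1-high cells (36.6% to 77.9%) and in 8 of 25 Klf1-low cells (14.95% to 53.5%), at means of 70.1 CPM in Klf1-high and 69.5 CPM in Klf1-low cells. The ratio of 1.01 was 0.66 with the Klf1 limit at 100 CPM and 2.63 on the mean of log2(CPM + 1), so its direction depended on the setting. Klf1-high cells were deeper, with a median of 3278130 reads against 1053050 in Klf1-low cells, and at 85519 reads each, 12 of 24 Klf1-high and 8 of 25 Klf1-low cells had an Irf7 read. Bst2 had medians of 56.6 CPM in Klf1-high and 58.6 CPM in Klf1-low cells and a ratio of 1.33. Ly6e had medians of 429 CPM in Klf1-high and 580 CPM in Klf1-low cells and a ratio of 0.64.

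Thus 4 of the 9 genes (Ifitm1, Ifitm2, Ifitm3 and Oas2) were 2-fold or more lower in Klf1-high cells and none was 2-fold or more higher, beside 16.5% and 11.1% of all genes tested. Without cells 9, 13, 23 and 34 the count was also 4, but Ifitm2 (ratio 0.72) was replaced by Tgtp1 (0.21). Neutrophil and monocyte marker sums had medians of 0.81 CPM in Klf1-high and 248 CPM in Klf1-low cells, those of HSC and multipotent progenitors 427 CPM in Klf1-high and 1556 CPM in Klf1-low cells, and those of megakaryocytes 3.24 CPM in Klf1-high and 224 CPM in Klf1-low cells. Their part in these ratios was not tested. Spearman correlations over the 49 cells were -0.56 for Klf1 with Ifitm3, -0.45 with Ifitm1, -0.42 with Ifitm2 and 0.35 with Irf7, against 0.64, 0.64, 0.44 and -0.10 for Cd34 with the same genes.

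**Figure D4:**
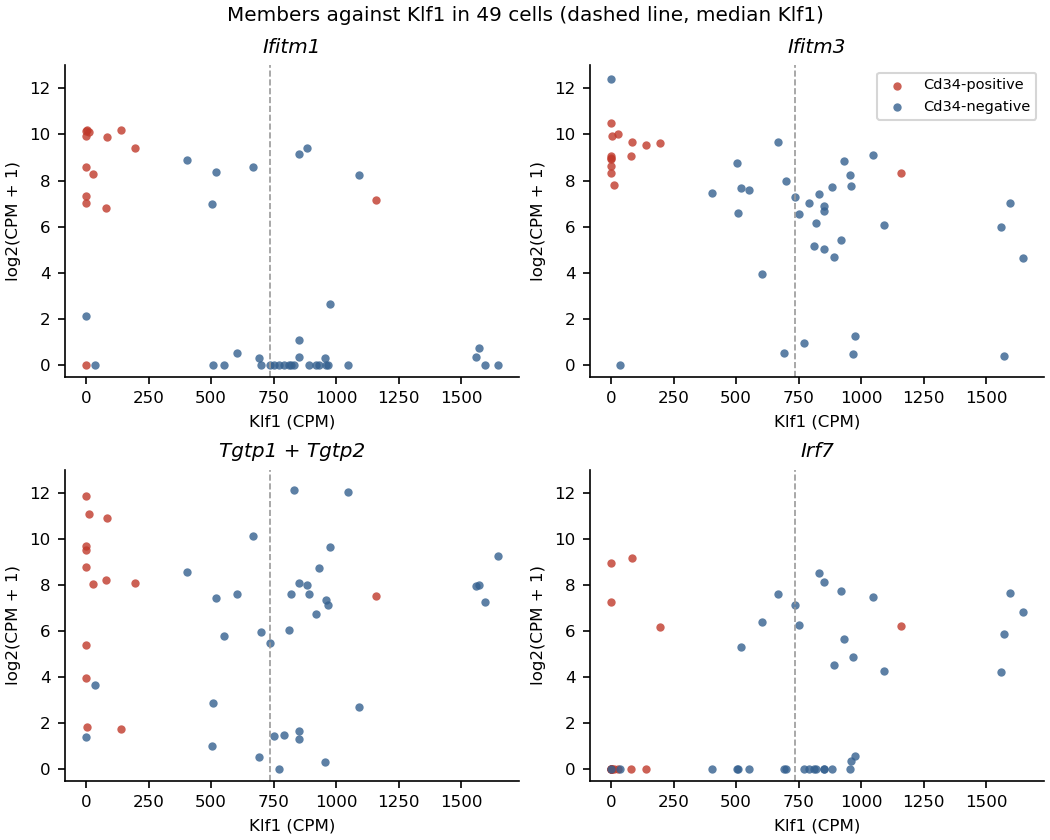
Ifitm1, Ifitm3, the sum of Tgtp1 and Tgtp2, and Irf7 (vertical axes, log2(CPM + 1)) against Klf1 (horizontal axes, CPM) in the 49 cells, with Cd34-positive cells in red, Cd34-negative cells in blue and the median Klf1 of 735.5 CPM as a dashed line. Of the 20 cells with Ifitm1 at 10 CPM or more, 12 lie at the left under 200 CPM of Klf1, whereas high points of the Tgtp sum and of Irf7 occur on both sides of the line.

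Because nearly all Cd34-positive cells were Klf1-low, the Cd34 comparison was repeated within the Klf1-low cells, 13 Cd34-positive against 12 Cd34-negative. Klf1 still differed between them, with a median of 2.56 CPM and at most 197 CPM in Cd34-positive cells, against a median of 535 CPM and at most 735.5 CPM in Cd34-negative cells, so Cd34 and Klf1 cannot be told apart here. Ifitm1 had medians of 671 CPM in Cd34-positive and 0.32 CPM in Cd34-negative cells, with 12 of 13 Cd34-positive and 4 of 12 Cd34-negative cells at 10 CPM or more, and a ratio of 5.77. Ifitm3 had medians of 532 CPM in Cd34-positive and 185 CPM in Cd34-negative cells but a ratio of 1.04, and without cell 34 the ratio was 3.19. For the Tgtp sum the medians were 299 CPM in Cd34-positive and 49.1 CPM in Cd34-negative cells and the ratio was 4.83, which was 3.40 without cell 41 and 9.78 without cell 15. Tgtp1 alone had 17.5, or 10.04 without cell 41 and 114 without cell 15.

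The other members within Klf1-low cells ranged more. Oas2 reached 10 CPM in 5 of 13 Cd34-positive and 1 of 12 Cd34-negative cells, with a ratio of 23.8 that was 6.76 without cell 16. The Cd34-negative cell was cell 15, and only 1 more Cd34-negative cell had an Oas2 read. Irf7 had means of 98.9 CPM in Cd34-positive and 37.7 CPM in Cd34-negative cells, a ratio of 2.62 and medians of 0 in both, and the ratio was 1.58 without cell 16 and 4.16 without cell 15. Bst2 had a ratio of 0.71, Ly6e of 1.15 and Ifitm2 of 0.76. Thus Ifitm1, Oas2, Tgtp1, Tgtp2 and Irf7 were 2-fold or more higher, 5 of 9, beside 24.6% of all genes tested, and none was 2-fold or more lower, beside 19.8%. With cells 9, 13, 23 and 34 left out the count was 5 again, but Irf7 (1.88) gave way to Ifitm3 (3.10). Marker lists moved with this comparison too. In Cd34-positive cells, 5 of 6 HSC and multipotent progenitor genes tested and 4 of 5 megakaryocyte genes were 2-fold or more higher. Lower were 5 of 7 erythroid genes and 2 of 2 neutrophil and monocyte genes. The 5 HSC genes include Cd34 and the 5 erythroid genes include Klf1, which set the classes, so the call of Cd34 was fixed by the split. The summed neutrophil and monocyte markers had medians of 623 CPM in Cd34-positive and 5.18 CPM in Cd34-negative cells, with 47423 CPM in cell 34, which is Cd34-negative. The part of these markers in the ratios was not tested.

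The wider interferon pathway was then read from lists. Interferon transcripts were nearly absent: of 17 ligand genes in the table, 16 had no read in any of the 49 cells, which allows a share of up to 6.12% of cells with a read (3 counts of 49), and Ifnz had a read in 2 cells with at most 5.38 CPM. Receptors were present. Ifngr1, the ligand-binding chain for interferon gamma, had a mean of 209 CPM in Cd34-positive and 919 CPM in Cd34-negative cells (ratio 0.23), and its partner Ifngr2 had 0.16 CPM in Cd34-positive and 14.1 CPM in Cd34-negative cells. Cell 9 held the highest Ifngr1 value, 5589 CPM. The type I receptor chains had ratios by Cd34 of 1.22 for Ifnar1 and 1.48 for Ifnar2, and Ifnar2 reached 10 CPM in 37 cells against 15 for Ifnar1. Il10rb had a ratio of 1.39 and Ifnlr1 no read. Of the 5 receptor genes tested, 2 were past 2-fold lower and none higher by Cd34, beside 19.2% and 20.2% of all genes tested. With any 1 cell left out, the 2 stayed past 2-fold.

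Among the signalling genes, 4 of 10 tested were 2-fold or more higher in Cd34-positive cells and none was lower. The shares over all genes tested were 20.2% and 19.2%. With any 1 cell left out, 2 of the 4 stayed past 2-fold. Stat3, which cytokines of several families activate, had means of 351 CPM in Cd34-positive and 94.6 CPM in Cd34-negative cells (ratio 3.71). The phosphatases Ptpn6 (2.16) and Ptpn2 (2.30, or 1.94 without cell 27), which damp JAK and STAT signalling, were also among the 4. Stat2 (0.67), Irf9 (0.84), Jak1 (1.18), Jak2 (1.94) and Tyk2 (0.82) were under 2-fold. By Klf1, Stat3 (0.19) and Ptpn6 (0.46) were 2-fold or more lower in Klf1-high cells.

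Of the 3 other interferon regulatory factors tested, Irf1, itself interferon-inducible, had means of 148 CPM in Cd34-positive and 25.2 CPM in Cd34-negative cells (ratio 5.89, or 11.8 without cell 11). Irf2, its relative with repressor activity, had a ratio of 3.87, and Irf3, the latent factor that sensors activate, had 1.10. Irf1 rested on few cells, as 13 cells were at 10 CPM or more and the 5 highest held 83.3% of it. Of 7 sensing genes tested, 3 were higher by Cd34 and none lower, beside 20.2% and 19.2% of all genes tested. With any 1 cell left out, 1 of the 3 stayed past 2-fold. Ddx58, or RIG-I, had 130 CPM in Cd34-positive and 7.38 CPM in Cd34-negative cells (ratio 17.7), or 9.93 without cell 16. The ratio of Cgas, 2.71, was 1.51 without that cell. Myd88, the Toll-like receptor adaptor, had 1.94 by Cd34 and 0.35 by Klf1, and Ifih1, or MDA5, had 2.57 by Klf1.

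The effector lists came last. Of 12 interferon-inducible GTPases tested, 6 were 2-fold or more higher in Cd34-positive cells and none lower, and 5 were lower and none higher in Klf1-high cells. Igtp had means of 143 CPM in Cd34-positive and 66.8 CPM in Cd34-negative cells (ratio 2.13), which was 1.25 without cell 51 and 3.95 without cell 11. Ifi47, the most abundant of the list per kilobase, had 1.46, or 2.04 without cell 11. Gvin1 (10.5, and 8.11 to 17.2 with any 1 cell left out) and Gm12250 (2.04, and 1.41 to 3.91) were higher by Cd34, and 9930111J21Rik2 (0.28) lower by Klf1. Of the 6 GTPases higher by Cd34, 3 stayed past 2-fold whichever cell was left out. Of 42 antiviral genes tested, 17 were higher and 6 lower by Cd34, beside 20.2% and 19.2% of all genes tested, and 4 higher and 10 lower by Klf1, beside 11.1% and 16.5%. With any 1 cell left out, 9 of the 17 and 3 of the 6 stayed past 2-fold by Cd34, as did 3 of the 4 and 5 of the 10 by Klf1. Among the most abundant past 2-fold were Shisa5 (2.21 by Cd34, or 1.89 without cell 51), Uba7, the activating enzyme for ISG15 (4.80), and Sp110 (2.92). Of those lower by Cd34, named after their values were seen, the exonuclease gene Isg20 had a ratio of 0.34 by Cd34 and 2.39 by Klf1, and Adar had 0.45 by Cd34, or 0.51 without cell 11, and 2.56 by Klf1. Median log2 ratios by Cd34 were 0.78 for the antiviral list and 0.95 for the GTPases, and by Klf1 they were -0.21 and 0.08.

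Lgals9 was the most abundant antiviral list gene per kilobase and had a ratio of 0.67 by Cd34. Some genes often read as a sign of type I interferon exposure, chosen after their values were seen, reached 10 CPM in few cells. Isg15 did in 4 cells with at most 68.0 CPM, Ifit1 in 4 with at most 200.6 CPM, Mx1 in 1 and Ifit3 in none. Other antiviral list genes, also named after their values were seen, reached 10 CPM in more cells. Ifit2 did in 7 cells, Oas3 in 11, Oasl2 in 12, Usp18 in 13 and Rtp4 in 19. The low genes thus do not stand for the whole list. Of the other Ifitm and Ly6 genes none passed the filter, and Ly6a, which marks mouse stem cells as Sca-1, reached 10 CPM in 4 cells.

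Most of the cells highest in Tgtp1 and Tgtp2 had many of the other interferon-stimulated genes on. Of 76 such genes (the antiviral and GTPase lists together), a cell had between 7 and 48 at 10 CPM or more, with a median of 20. Of the 6 cells with a Tgtp sum over 1000 CPM, cell 11 had 48, cells 15 and 23 had 44 each, cell 16 had 38 and cell 51 had 27, but cell 41 had 19, under the median. Cell 26, with a Tgtp sum of 721 CPM, had 15, and cell 2 had 43 at a Tgtp sum of 182 CPM. The number correlated with the Tgtp sum at a Spearman value of 0.61 and with total reads at 0.36. Its median was 20.5 in Cd34-positive and 20 in Cd34-negative cells, and 21 in Klf1-high and 20 in Klf1-low cells.

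The cells highest in the Tgtp sum differed in which genes they carried. Igtp had 1112 CPM in cell 11, 914 CPM in cell 51 and 621 CPM in cell 16, against 0.75 CPM in cell 41, where the Tgtp sum was 3717 CPM. Irf1 had 656 CPM in cell 16, 506 CPM in cell 51 and 456 CPM in cell 11, and no read in cell 41. Ifi47 had 233 to 1096 CPM, against a median of 28.4 CPM over all cells, in the 6 cells with a Tgtp sum over 1000 CPM.

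**Figure D5:**
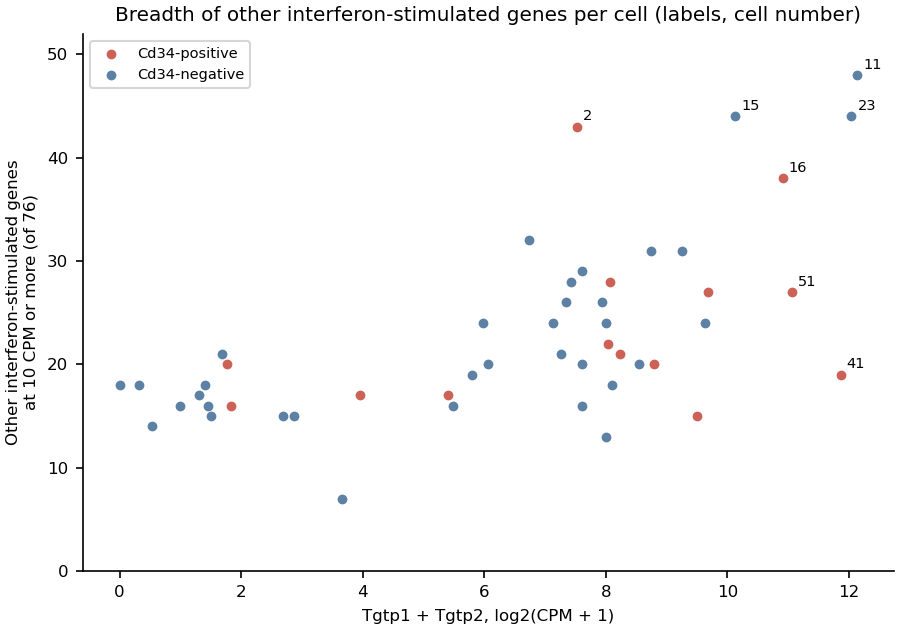
Number of other interferon-stimulated genes at 10 CPM or more in a cell, of 76 (vertical axis), against the sum of Tgtp1 and Tgtp2 (horizontal axis, log2(CPM + 1)), with 1 point per cell, Cd34-positive cells in red, Cd34-negative cells in blue and cell numbers beside the 6 cells over 1000 CPM and cell 2. Cells 11, 15 and 23 have 44 to 48 such genes, and cell 41 has 19 at a Tgtp sum of 3717 CPM.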

How the data were processed

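For each of 52 cells the authors deposited expected counts, that is, counts per gene estimated by a model (4.23% of them not whole), made after Trim Galore 0.5.0 and Salmon 0.03.1 with GRCm38, per the submitters' processing notes; the sources used here do not give the transcript set, the gene-level step or the strand setting. Such a count divides reads of near-identical genes by a model, and without a stated strand setting overlapping and antisense genes are uncertain.

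Counts were rounded and divided by each cell's total (CPM). Cells needed 50000 reads, 1000 detected genes and a mitochondrial share of at most 20%, which left out cells 5, 10 and 12. No doublet caller was run on so few wells. Symbols, coordinates and exon lengths came from GENCODE M21 on GRCm38, where 27797 of 28786 identifiers had a symbol. Analyses used Python 3.11.15, pandas 2.3.3 and scipy 1.17.1, and the ratio and concentration code was checked on simulated counts.

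The members and lists were chosen with earlier results of these data known. All 9 members are named; of the lists, up to 4 tested genes past 2-fold by mean CPM, the most abundant per kilobase, and each receptor, JAK and STAT gene; for likeness, the genes with the highest correlations. Some of the list and likeness genes that this rule names are not reported here. With 1 sample there is no p-value. Ratios are of mean CPM, Cd34-positive over Cd34-negative or Klf1-high over Klf1-low. Intervals are exact Clopper-Pearson 95% intervals. They, and the limit of 3 counts behind a count of 0, cover counting error only, since PCR copies of 1 molecule cannot be told apart here. Alternatives were the scaling (edgeR 4.0.16 TMM, DESeq2 1.42.0 median of ratios), the cells kept, thinning, class limits and summed copies.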

Additional observations from a re-analysis of the deposited data

Results flagged for a closer look

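Cells 5, 10 and 12, which failed the cell filter and enter no comparison, also held reads of members. Cell 5, which had the depth but too high a mitochondrial share, had 534 CPM of Ifitm2 (164 reads), 355 CPM of Ifitm3 (109 reads), 788 CPM of Ly6e (242 reads) and 65.1 CPM of Bst2 (20 reads). Cell 10 had 151 CPM of Ly6e from 6 reads. Cell 12 had 2158 CPM of Tgtp2 from 70 reads and 401 CPM of Tgtp1 from 13 reads, beside 277 CPM of Ifitm2 (9 reads), 617 CPM of Ly6e (20 reads) and 123 CPM of Bst2 (4 reads). Each value lay above the limit that a count of 0 allows, and that of Tgtp2 in cell 12 exceeded the sum of Tgtp1 and Tgtp2 in all but 3 of the kept cells.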

How the results depend on the processing

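No member past 2-fold by Cd34 or by Klf1 changed direction under the alternatives run. Some list genes did when 1 cell was left out. By Cd34, Ddx60 went from 6.92 to 0.25 without cell 51, and Gbp2 from 2.75 to 0.55 without cell 41. By Klf1, Oas1b went from 0.03 to 2.05 without cell 34. The number of genes with 50% or more of their signal in 5 cells was 7 with median of ratios size factors, against 4, and 3 to 6 elsewhere. Constitutive genes were 4 when 1 read sufficed, the added ones being Ifitm3 and Tgtp2, and 2 under all other alternatives run. With near-identical copies summed, 1 of 6 was higher by Cd34, 2 of 6 lower by Klf1 and 3 of 6 higher by Cd34 within Klf1-low cells. On the mean of log2(CPM + 1), 2 were lower and 2 higher by Klf1, and 5 higher and 1 lower by Cd34. Over the other alternatives, 3 to 5 were higher by Cd34, 3 to 5 lower by Klf1 and 4 to 6 higher within Klf1-low cells, where 2 were also lower with median of ratios size factors. In the pathway lists 32 of 79 tested were higher by Cd34 (24 to 37 elsewhere), beside 20.2% of all genes tested. The median correlation between members stayed between 0.23 and 0.25. With TMM factors the median log2 ratio over all genes by Klf1 was 0.15, against 0.03. Over genes and settings, the Cd34 ratio moved by over 1.5 times in 22 cases and not in 99. Settings for cell 16 alone, cells 9 and 34 alone, the Klf1-low comparison, the lists and each cell left out of them were chosen after seeing the data. No paired analysis was possible because all cells belong to 1 group. Depth limits the low genes: in the shallowest cell 1 read is over 10 CPM.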
